A study of Homo sapiens with 22 samples.

Results

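Neurotransmitter receptor genes encode the ion channels and G protein-coupled receptors through which a cell senses glutamate, GABA, glycine, acetylcholine, serotonin, dopamine, noradrenaline and ATP. They were taken from the count table by symbol, with no measured value used, as the genes of 14 classes: AMPA, kainate, NMDA and metabotropic glutamate receptors, GABA-A and GABA-B receptors, glycine receptors, nicotinic and muscarinic acetylcholine receptors, serotonin, dopamine and adrenergic receptors, and the P2X and P2Y receptors for ATP and other nucleotides. The rule found 119 of the 35237 rows, 68 for subunits of ion channels and 51 for G protein-coupled receptors. Of the 119 genes, 73 (61.3%) reached 10 counts in 3 of the 22 libraries and 46 did not. Over all rows, 16771 of 35237 (47.6%) did.

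The cells were SK-N-AS and GIMEN, both established lines of human neuroblastoma, whose labels carry the term MES, the usual short form for the mesenchymal state of this tumour. PP121 is an inhibitor of tyrosine kinases and of phosphoinositide 3-kinases, and bufalin is a cardiac glycoside that blocks the sodium pump. Untreated SK-N-AS grew in DMEM with 10% fetal bovine serum (FBS). The S1D4 cells received 5 µM PP121 for 4 days, in DMEM whose FBS was lowered to 1%. S2D4 and S2D30 cells came from S1D4 cells and then received bufalin at 100 nM together with PP121 at 5 µM, for 4 or 30 days, in Neurobasal with B27 and no serum listed. Untreated GIMEN grew in RPMI with 10% FBS, and the GIMEN D30 cells received PP121 at 2.5 µM and bufalin at 10 nM for 30 days in RPMI with FBS at 1%. Each SK-N-AS group had 4 libraries and each GIMEN group 3. No group in the labels had the change of medium without the compounds, so compound, medium, serum and time cannot be told apart, and the lines differed in dose and medium as well. The labels do not say that replicates were separate cultures, so p-values measure the spread between these libraries, which may be technical.

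As background, ionotropic receptors are channels that open when the transmitter binds, and they are assembled from several subunits encoded by separate genes, so that the subunit mix sets what the channel conducts. Metabotropic receptors instead couple to G proteins. Neuroblastoma arises from the sympathetic nervous lineage, and sympathetic neurons are known for ganglionic nicotinic receptors built from the CHRNA3, CHRNB4 and CHRNA5 subunits, for muscarinic receptors, and for alpha-2 adrenergic autoreceptors that limit noradrenaline release. RNA levels say nothing on whether a receptor protein was made or reached the membrane. In bulk RNA, fewer cells that express a gene and less RNA per cell cannot be told apart.

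Totals ran from 16456484 to 37506800 counts per library. Values are given as CPM, counts scaled to a common library size after 1 TMM scaling of all 22 libraries, and a gene was treated as at the floor in a group when each library held at most 3 counts. Library 4 of S2D4 stood apart before any test: the receptor genes summed to 541, 564 and 544 CPM in replicates 1 to 3 and to 1056 CPM in replicate 4. Among S1D4 libraries replicates 1 and 2 differed from replicates 3 and 4, with a chi-square of the counts over genes, per degree of freedom, of 24.1 to 27.4 across these pairs against 6.70 and 3.16 within them. By that measure the untreated SK-N-AS libraries did not divide this way, but their deviations from the group means were related to it. Untreated replicates 1 and 2 correlated with S1D4 replicates 1 and 2 at 0.155 to 0.273. With S1D4 replicates 3 and 4 they correlated at -0.228 to -0.199. Untreated replicate 4 correlated with S1D4 replicates 3 and 4 at 0.288 and 0.29, and untreated replicate 3 at 0.041 and 0.069. The main model held no term for this division. Of 7 adrenergic neuroblastoma markers, the sum fell from between 1556 and 1796 CPM in untreated SK-N-AS to between 175 and 220 CPM in S2D30, while the sum of 7 mesenchymal markers went from between 846 and 1464 CPM to between 2998 and 3648 CPM. GIMEN had mesenchymal sums of 38912 to 40073 CPM untreated and 20855 to 24029 CPM at D30. In SK-N-AS both sums had changed at 30 days, as had receptor genes, but the mesenchymal sum was already between 2526 and 4846 CPM in S2D4. The adrenergic sum was between 562 and 826 CPM in S2D4. From S2D4 to S2D30, 2 mesenchymal markers were called higher and 3 lower, and all 7 adrenergic markers lower. Against untreated, all 7 adrenergic markers were called lower in S2D30, while 6 mesenchymal markers were called higher and 1 lower. In GIMEN the adrenergic sum also fell, from between 422 and 439 CPM to between 234 and 277 CPM. Of its 4 tested adrenergic markers 1 was called higher and 1 lower, and of its 7 mesenchymal markers 2 higher and 4 lower. All 7 adrenergic markers were higher in untreated SK-N-AS than in untreated GIMEN, so the MES label covered lines with different marker levels. Schwann and glial markers summed to at most 9.68 CPM and endothelial markers to at most 30.4 CPM in any library, with 1 to 3 of 7 and 0 to 3 of 4 genes at the floor in a group. Leukocyte markers summed to 77.0 to 410 CPM, with 2 or 3 of 7 at the floor. In GIMEN the endothelial sum went from between 4.3 and 4.79 CPM untreated to between 24.4 and 30.4 CPM at D30. The leukocyte sum of that line went from between 89.6 and 103 CPM to between 175 and 410 CPM. Of 2 endothelial and 3 leukocyte markers tested there, 1 of each list was called higher and 1 lower. PTPRC, a defining leukocyte gene, averaged 179 CPM in untreated SK-N-AS and 0.832 CPM in S2D30, while CD3E was at 0 in every SK-N-AS library and LYZ averaged at most 0.131 CPM in the SK-N-AS groups. Leukocyte markers did not fall as a set: of 3 tested in S2D30 against untreated, 2 were called higher and 1 lower. The part of these marker changes in the receptor results was not tested.

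Untreated SK-N-AS had 36 receptor genes at 1 CPM or more in each library, S1D4 had 34, S2D4 had 25 and S2D30 had 27. Untreated GIMEN had 19 and GIMEN D30 had 21. At the other end, 33 of the 119 genes were at the floor in untreated SK-N-AS and 63 in untreated GIMEN. Receptor genes together made up 926 to 1121 CPM per library of untreated SK-N-AS. The S1D4 libraries held 1161 to 1358 CPM and those of S2D30 510 to 524. For GIMEN the sums were 272 to 302 CPM before treatment and 355 to 373 CPM at D30. The S2D30 sums lay below each untreated SK-N-AS sum, and the GIMEN D30 sums lay above each untreated GIMEN sum.

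Per kilobase of exon sequence (GENCODE 29), which allows levels to be compared between genes, the order of receptor genes differed between groups. In untreated SK-N-AS the highest was CHRNA3 at 105 CPM per kb, ahead of CHRNA5 at 21.7, P2RY11 at 19.7, CHRNB4 at 17.7 and DRD4 at 13.5. In S2D30 ADRA2C led at 34.5 CPM per kb, then P2RX4 at 12.7, GABBR1 at 12.2, P2RY11 at 11.5 and CHRNA3 at 8.16. Untreated GIMEN was led by GABRE at 12.7 CPM per kb, P2RY11 at 7.15, GABBR1 at 5.49, GABRB1 at 5.06 and HTR7 at 3.45. GIMEN D30 was led by GABBR1 at 13.7 CPM per kb, HTR7 at 10.3 and GABRE at 8.88. P2RY11 is an uncertain entry in each of these orders, because 54.2% of its GENCODE exon sequence overlaps PPAN or their read-through gene on the same strand and the counting rules are not given in the sources used here.

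**Figure D1:**
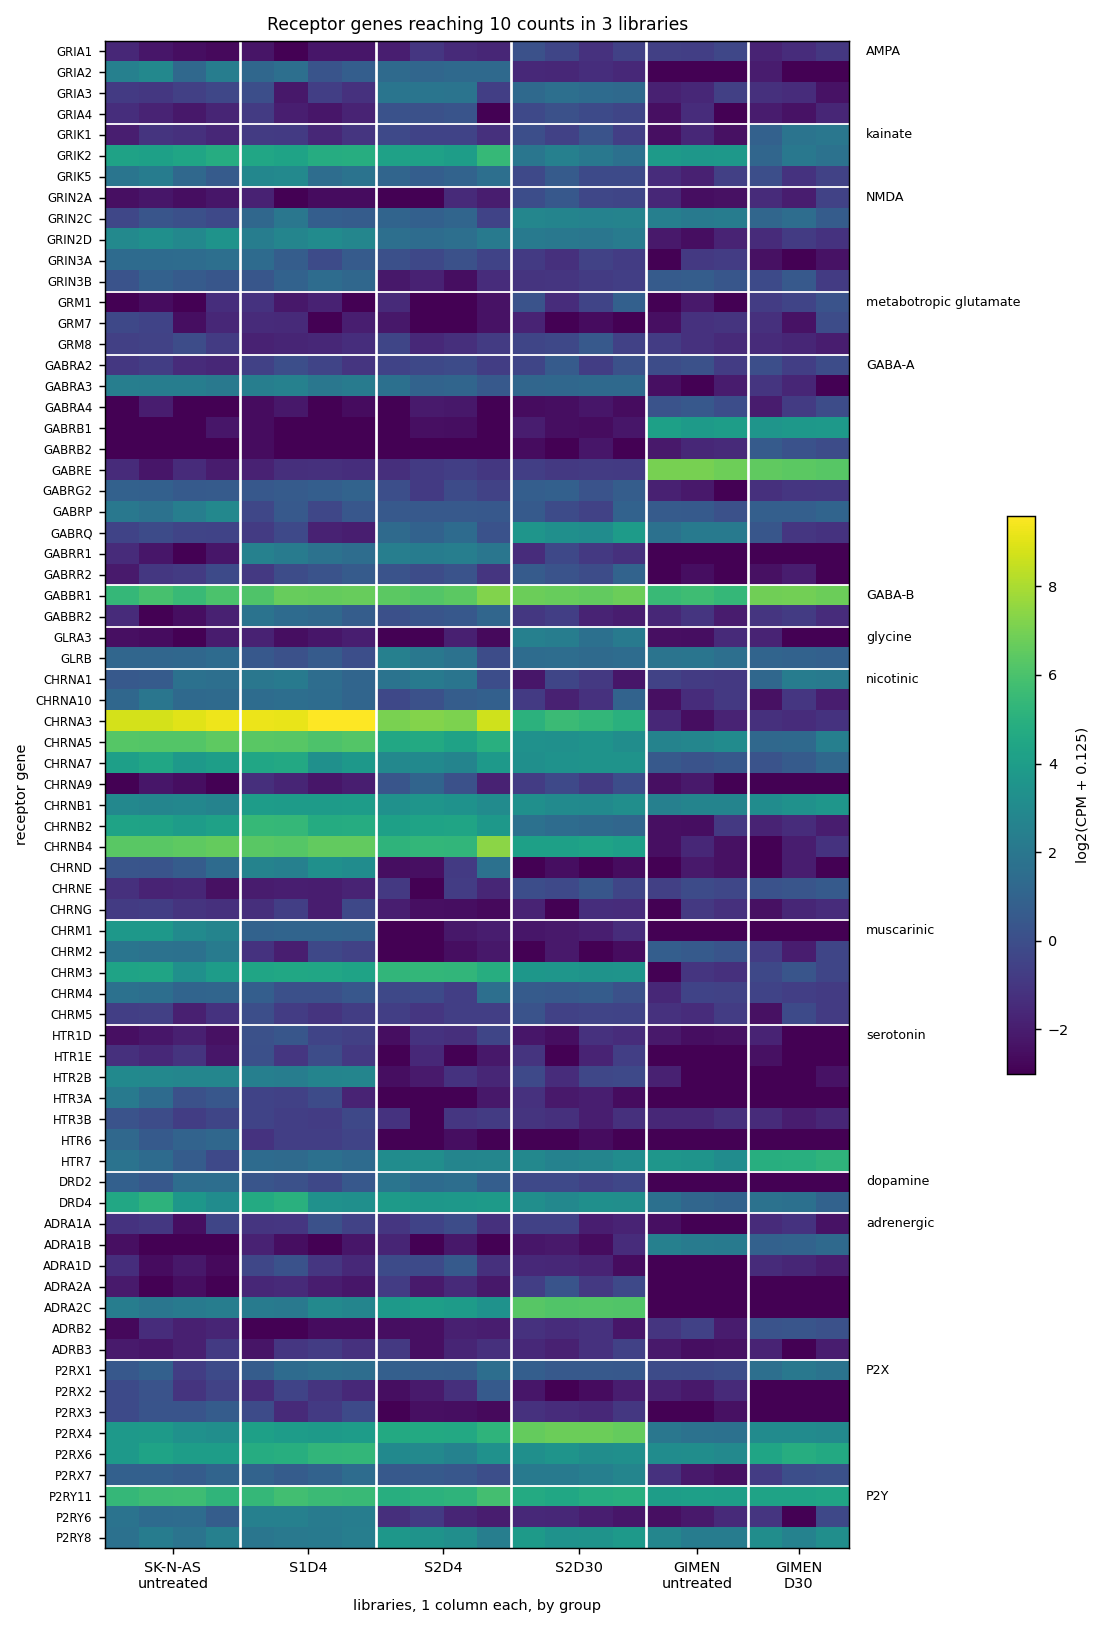
Level of 72 of the 73 receptor genes that reached 10 counts in 3 libraries (rows, ordered by class), in each of the 22 libraries (columns, in 6 groups separated by white lines), as log2(CPM + 0.125). The CHRNA3, CHRNA5 and CHRNB4 rows are bright in untreated SK-N-AS and S1D4, ADRA2C and P2RX4 brighten in S2D30, and GABRE and GABRB1 are bright in the GIMEN columns and dark in the SK-N-AS columns.

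The 46 genes below 10 counts in 3 libraries include whole subtypes. Kainate subunits GRIK3 and GRIK4, 5 of the 8 metabotropic glutamate receptors, 7 of 19 GABA-A subunits, 3 of 5 glycine subunits and 10 of 17 serotonin receptors were among them, as were DRD1, DRD3 and DRD5. GABRA6, HTR3D, DRD3, P2RY1 and P2RY10 had 0 counts in every library. GRIN1, the subunit that every NMDA receptor needs, stayed below the limit too: its highest count was 55, in S2D4 replicate 4 (1.76 CPM), while the other S2D4 libraries held 0.00, 0.109 and 0.186 CPM. GRIN1 averaged 0.0911 CPM in untreated SK-N-AS and 0.0986 CPM in S2D30. P2RY12 was just under the limit as well, with a highest count of 34 in untreated SK-N-AS and 0 counts in each S2D4 and S2D30 library. Results below concern the genes that the filter on low counts let through. A gene that passed only through the group where it is high had to differ, so counts over tested members describe these genes and do not stand for all 119.

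The first comparison sets the untreated lines side by side. Of 74 tested members, 40 (54.1%) were higher in SK-N-AS and 11 (14.9%) were higher in GIMEN, at an adjusted p under 0.05 (edgeR quasi-likelihood test, Benjamini-Hochberg over all genes tested, as everywhere below). Over all 16610 genes, 38.1% were higher and 33.1% lower in SK-N-AS. The median log2 difference was 1.57 for the members and 0.09 for all genes. Of the 74 tested members, 27 were at the floor in an untreated group. The filter used all 22 libraries, 16 of them SK-N-AS, so genes expressed in that line had more ways to pass. The matching number at the floor for all genes is not given. These counts, the median and the class counts below therefore describe the genes that passed and do not rank the lines. Under upper-quartile scaling the median gene of this comparison shifted by 0.138 (log2), and the counts of members stayed at 40 and 11. Of 12 tested nicotinic genes 8 were higher in SK-N-AS, of 5 muscarinic 4, of 7 serotonin 5 and of 6 P2X 5, while the 12 tested GABA-A genes divided evenly, with 6 in each direction.

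The genes that divided the lines most were nearly silent in one of them. GABRE, the epsilon subunit of GABA-A receptors, was at 128, 127 and 112 CPM in untreated GIMEN and at 0.237, 0.0866, 0.243 and 0.120 CPM in untreated SK-N-AS (log2 difference of -9.41, SE 0.17, adjusted p = 5e-20). GABRB1, a beta subunit, was at 17.5, 14.5 and 15.8 CPM in untreated GIMEN, against 3 counts in all 4 untreated SK-N-AS libraries together. ADRA1B, an alpha-1 adrenergic receptor, was at 5.47, 4.60 and 4.31 CPM in untreated GIMEN, against 2 counts over the untreated SK-N-AS libraries. These 3 genes separated the libraries of the lines without overlap. In the other direction, CHRNA3 averaged 502 CPM in untreated SK-N-AS and 0.144 CPM in untreated GIMEN (log2 difference of 11.74, SE 0.57, adjusted p = 7.44e-14). Against untreated GIMEN libraries with 0 counts, and so against a floor of 3 counts per library, CHRM1 was at least 63.3-fold higher, GRIA2 at least 31.0-fold, ADRA2C at least 28.5-fold, HTR3A at least 14.3-fold, DRD2 at least 13.3-fold and HTR6 at least 12.1-fold.

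Within SK-N-AS the 3 treated groups were each set against the same 4 untreated libraries, and 60 members were tested. In S1D4, 13 members (21.7%) were higher and 10 (16.7%) lower, beside 17.6% and 22.4% of all 15810 genes. In S2D4, 17 (28.3%) were higher and 19 (31.7%) lower, beside 30.9% and 32.2% of all genes. In S2D30, 20 (33.3%) were higher and 31 (51.7%) lower, beside 33.8% and 36.5% of all genes, which left 9 of the 60 without a call. The shares for S2D4 were close to the background. The median log2 change of the members was 0.19 in S1D4, -0.18 in S2D4 and -0.71 in S2D30, against -0.01, -0.02 and -0.03 for all genes. Channels and G protein-coupled receptors both moved each way in S2D30: of 40 tested channel genes 15 rose and 22 fell, and of 20 tested G protein-coupled receptor genes 5 rose and 9 fell.

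Steps between treated groups were tested in the same model. Between S1D4 and S2D4, a step that brought in bufalin and a medium with no serum listed, 11 members rose (18.3%) and 22 fell (36.7%), beside 28.3% and 26.8% of all genes, with medians of -0.35 and 0.02. From day 4 to day 30 of that stage, 13 rose (21.7%) and 17 fell (28.3%), beside 24.4% and 26.9%, with medians of -0.13 and -0.02. Without S2D4 replicate 4 the S2D4 calls against untreated became 19 higher and 26 lower, 15 and 19 of them the same genes, and those against S1D4 became 12 and 30. The genes lost without it were HTR1D and P2RX1, and among the 11 gained were CHRNB4, CHRND and CHRNA10. For S2D30 against S2D4 its omission gave 18 higher and 18 lower, with GRIK5 and P2RX2 lost.

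**Figure D2:**
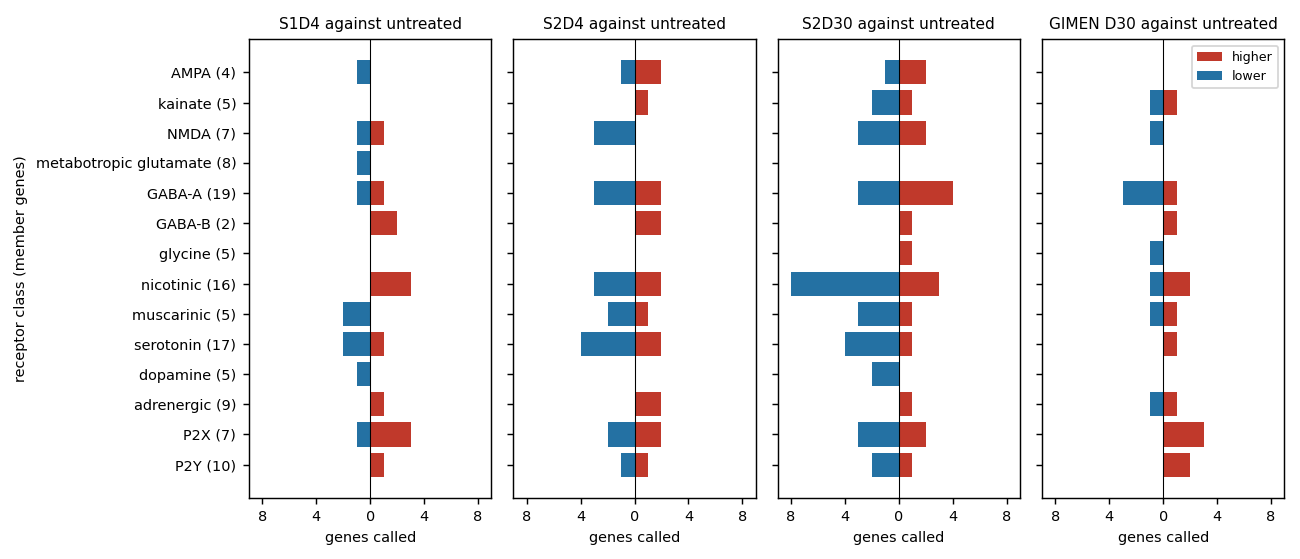
Number of receptor genes called at an adjusted p under 0.05 (horizontal axis, higher to the right in red, lower to the left in blue) in each receptor class (vertical axis, with the number of member genes), for 3 SK-N-AS groups and GIMEN D30 against the untreated cells of the same line. In S2D30 the nicotinic class has 8 genes lower and 3 higher, and the 3 P2X calls in GIMEN D30 are all higher.

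Nicotinic acetylcholine receptors included the receptor gene with the highest level per kb in untreated SK-N-AS, S1D4 and S2D4, CHRNA3, and the longest list of falls in S2D30. Of 11 tested nicotinic genes, 8 fell in S2D30 against untreated (CHRNA1, CHRNA3, CHRNA5, CHRNA7, CHRNA10, CHRNB2, CHRNB4 and CHRND) and 3 rose (CHRNA9, CHRNB1 and CHRNE). Over all genes tested 36.5% fell and 33.8% rose, and the same shares stand beside the S2D30 counts of the other classes below. With 11 of the 60 tested members the nicotinic class was also the largest, which by itself allows a longer list. CHRNA5, CHRNA3 and CHRNB4 are neighbours on chromosome 15 in the RefSeq gene order, with no protein-coding gene between them. The sequences that RefSeq places just before the start of CHRNA3 and CHRNB4 are shown because both genes fell together: 250 bases of build GRCh38.p14, 5′ to 3′ on the gene's strand, with matches to a GC box (GGGCGG) or an E-box (CAGCTG), on either strand, in capitals. CHRNA3 lies at chr15:78620997-78621246 and CHRNB4 at chr15:78641211-78641460, both on the minus strand.
CHRNA3: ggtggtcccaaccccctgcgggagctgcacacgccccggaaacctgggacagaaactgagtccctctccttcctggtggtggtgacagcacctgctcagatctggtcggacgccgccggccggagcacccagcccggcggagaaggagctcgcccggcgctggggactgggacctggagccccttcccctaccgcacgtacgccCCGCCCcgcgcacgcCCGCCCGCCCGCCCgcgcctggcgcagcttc
CHRNB4: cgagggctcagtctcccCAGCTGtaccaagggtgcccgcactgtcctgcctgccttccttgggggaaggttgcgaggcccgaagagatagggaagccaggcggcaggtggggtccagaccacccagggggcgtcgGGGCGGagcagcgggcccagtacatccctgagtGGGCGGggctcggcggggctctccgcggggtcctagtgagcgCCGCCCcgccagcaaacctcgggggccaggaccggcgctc
The CHRNA3 window holds 4 GC boxes, 3 of which run into each other, and is 73.6% G and C. The CHRNB4 window holds 3 GC boxes and 1 E-box and is 72.4% G and C. A GC box stands in 46 of the 86 member genes that have such a window (53.5%) and in 42.3% of all 27305 windows, and the E-box in 15 members (17.4%) and 13.8% of all. Motifs for CRE (TGACGTCA; 1.77% of all windows), AP-1 (TGANTCA; 6.60%) and the TATA box (TATAAA; 11.1%) were searched as well and are not in either window. A match is a description of letters and not a bound site.

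CHRNA3, the main alpha subunit of ganglionic receptors, was at 440, 441, 515 and 612 CPM in untreated SK-N-AS and at 590, 572, 774 and 772 CPM in S1D4. It was at 134, 155, 138 and 411 CPM in S2D4 and at 34.1, 48.4, 41.0 and 32.2 CPM in S2D30. S1D4 overlapped the untreated range, each S2D4 library lay below it, and each S2D30 library lay below every other SK-N-AS library. The log2 change against untreated was -1.27 (SE 0.29, adjusted p = 0.0012) in S2D4 and -3.68 (SE 0.32, adjusted p = 2.57e-08) in S2D30.

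CHRNB4, the beta partner, was at 83.9, 82.2, 87.5 and 98.5 CPM untreated, at 82.2, 76.8, 96.5 and 96.4 CPM in S1D4 and at 17.7, 17.8, 19.4 and 17 CPM in S2D30. In S2D4 it was at 36.1, 40.8 and 38.7 CPM in replicates 1 to 3 and at 167 CPM in replicate 4, so that group overlapped untreated and its change missed the threshold (log2 -0.32, SE 0.36, adjusted p = 0.452). In S2D30 CHRNB4 fell by 2.28 on the log2 scale (SE 0.38, adjusted p = 4.91e-05). CHRNA5, an accessory subunit, was at 78.1, 73.9, 74.6 and 87.6 CPM untreated, 23.3, 24.9, 19.0 and 30.6 CPM in S2D4 and 10.3, 9.83, 11 and 9.06 CPM in S2D30. Its fall of 2.95 on the log2 scale (SE 0.13, adjusted p = 6.93e-12) stood beside that of 3.68 for CHRNA3 next to it. Of the CHRNA5 exon sequence 28.4% overlaps other genes on the opposite strand, CHRNA3 among them, so part of its count may belong to them where strand was not used.

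The other neuronal nicotinic genes did not share 1 time course. CHRNB2, a beta subunit of brain receptors, rose in S1D4, from 20.0, 19.3, 15.4 and 18.2 CPM to 43.8, 41.7, 26.9 and 28.1 CPM (log2 0.95, SE 0.18, adjusted p = 0.000475). It was back at 17.6, 19.4, 20.3 and 13.1 CPM in S2D4 and had fallen to 3.15, 2.59, 2.35 and 2.10 CPM in S2D30 (log2 -2.82, SE 0.20, adjusted p = 2.11e-09 against untreated). CHRNA7, whose subunits can form a receptor on their own, averaged 17.2 CPM untreated and 10.5 CPM in S2D30 (log2 -0.71, adjusted p = 0.03). In GENCODE, 22.1% of the 75-base words of CHRNA7 also occur in CHRFAM7A, a partial copy, so its count is uncertain. CHRNA9, known from hair cells of the inner ear, rose from 3 counts over all untreated libraries to 1.11, 1.96, 0.979 and 0.160 CPM in S2D4, a counting ratio of 35.5 (95% exact interval 11.8 to 176, for counting error only), and was at 0.474, 0.748, 0.443 and 0.855 CPM in S2D30.

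Subunits of the muscle receptor moved apart from each other. CHRND, the delta subunit, was at 1.11, 1.08, 1.46 and 2.52 CPM untreated, rose to 6.04, 5.42, 9.72 and 8.66 CPM in S1D4 (log2 2.26, SE 0.69, adjusted p = 0.0149) and had 2 counts in all S2D30 libraries together. Against untreated the S2D30 level was lower by a counting ratio of 70.3 (95% exact interval 19.2 to 585). In S2D4 it was at 0.0462, 0.0544 and 0.420 CPM in replicates 1 to 3 and at 3.08 CPM in replicate 4, and the fall from S1D4 was -2.94 with that library (log2, adjusted p = 0.00241) and -5.35 without it (adjusted p = 3.57e-07). CHRNA1, the muscle alpha subunit, was at 1.32, 1.43, 3.11 and 2.88 CPM untreated and at 0.0862, 0.649, 0.399 and 0.0855 CPM in S2D30 (log2 -2.84, SE 0.60, adjusted p = 0.000491, and -3.48 without S2D30 replicate 2). CHRNB1, the muscle beta subunit, instead rose in each treated group: 7.31, 6.54, 6.95 and 6.06 CPM untreated became 15.4, 14.7, 15 and 15.4 CPM in S1D4 (log2 1.18, SE 0.12, adjusted p = 1.66e-06) and 9.48, 8.13, 7.66 and 9.24 CPM in S2D30 (log2 0.38, adjusted p = 0.00982). CHRNE, the adult muscle epsilon subunit, averaged 0.179 CPM untreated and 0.851 CPM in S2D30 (log2 2.23, adjusted p = 0.00146), with 54.4% of its exon sequence overlapped by genes on the opposite strand.

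Muscarinic receptors, which couple acetylcholine to G proteins, lost CHRM1 and CHRM2 in steps. CHRM1 was at 13.2, 12.8, 8.12 and 6.39 CPM untreated, at 1.80, 1.95, 1.98 and 1.91 CPM in S1D4 and at 0.0862, 0.0998, 0.133 and 0.257 CPM in S2D30. In S2D4 it had 6 counts in 4 libraries. These groups did not overlap, except S2D4 with S2D30. The log2 change was -2.40 (SE 0.31, adjusted p = 1.85e-05) in S1D4 and -6.06 (SE 0.42, adjusted p = 1.58e-09) in S2D30. For S2D4 it was -7.21 (adjusted p = 1.51e-09), or -8.07 without S2D4 replicate 4. CHRM2, the receptor known from the heart, went from 3.62, 3.25, 3.16 and 4.53 CPM to 0.320, 0.139, 0.715 and 0.577 CPM in S1D4 (log2 -3.04, SE 0.46, adjusted p = 6.93e-05). It had 4 counts in S2D4 and 3 in S2D30, lower than untreated by counting ratios of 86.3 (95% exact interval 33.5 to 318) and 111 (37.7 to 539).

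CHRM3, which couples to phospholipase C, took another course. Per kilobase CHRM1 led the muscarinic genes in untreated SK-N-AS, at a mean of 3.11 CPM per kb against 1.34 for CHRM3, while in S2D4 CHRM3 led at 3.02. It was at 19.6, 20.1, 9.97 and 15.6 CPM untreated and at 38.4, 40.9, 38.9 and 28.6 CPM in S2D4, above every untreated library (log2 1.16, SE 0.17, adjusted p = 1.75e-05). In S2D30 it was at 12.6, 12.3, 11 and 11.3 CPM, inside the untreated range, and the call against untreated (log2 -0.45, adjusted p = 0.0265) was lost without untreated replicate 1 or 2 (adjusted p = 0.103 for each), without S2D30 replicate 3 or 4 (0.0629 and 0.06) and with the compared groups fitted alone (0.0588). CHRM4 averaged 2.48 CPM untreated and 1.29 CPM in S2D30 with no call (adjusted p = 0.0607). CHRM5 averaged 0.374 and 0.700 CPM (log2 0.89, adjusted p = 0.0466).

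**Figure D3:**
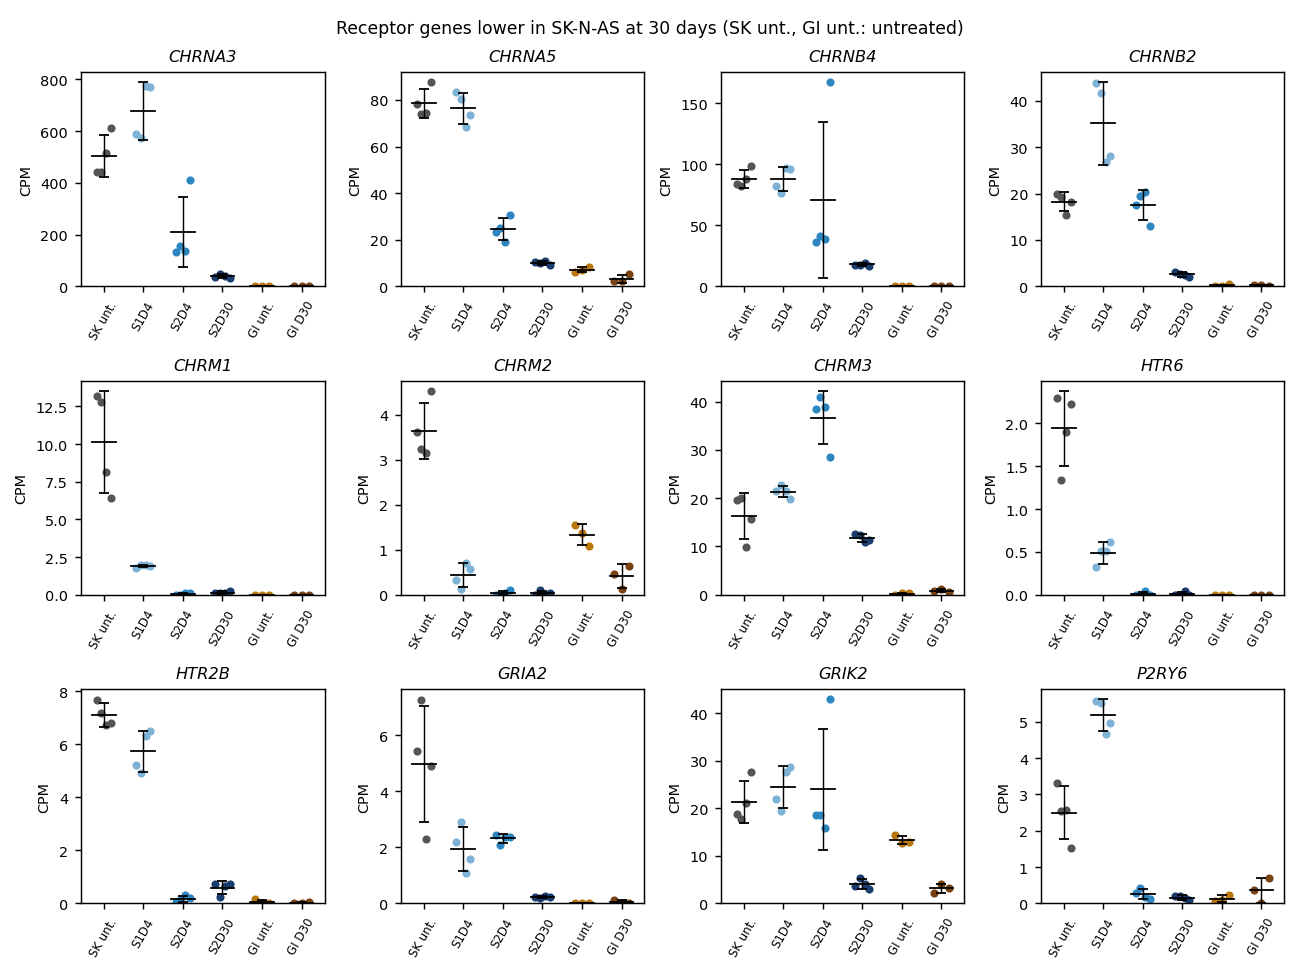
CPM in each library (points) with the mean and SD of the group (bars) for 12 receptor genes called lower in S2D30 than in untreated SK-N-AS, in the 6 groups; each panel has its own vertical axis from 0. CHRNA3 drops from between 440 and 612 CPM to between 32.2 and 48.4 CPM, CHRM1 and HTR6 are near 0 from S2D4 on, and S2D4 replicate 4 is far above its group for CHRNA3, CHRNB4 and GRIK2.

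Serotonin receptors divided by subtype. Of 6 tested genes, HTR2B, HTR3A, HTR3B and HTR6 fell in S2D30 and HTR7 rose. HTR2B, which couples to phospholipase C, was at 7.68, 7.19, 6.71 and 6.81 CPM untreated and at 5.20, 4.91, 6.31 and 6.48 CPM in S1D4. It dropped to 0.0462, 0.109, 0.326 and 0.192 CPM in S2D4 (log2 -5.33, SE 0.35, adjusted p = 1.82e-09) and was at 0.732, 0.249, 0.664 and 0.727 CPM in S2D30. S1D4 lay just under the untreated libraries with no call (adjusted p = 0.357), both later groups lay far below, and the step back up from S2D4 to S2D30 was called (log2 1.79, adjusted p = 0.00135). HTR2B lies opposite PSMD1 over 24.9% of its exon sequence. HTR6, which raises cyclic AMP, went from 2.3, 1.34, 1.90 and 2.22 CPM to 0.320, 0.510, 0.505 and 0.621 CPM in S1D4 (log2 -1.98, SE 0.36, adjusted p = 0.000394). It had 1 count in S2D4 and 1 in S2D30 over 4 libraries each, lower than untreated by counting ratios of 186 (95% exact interval 33.1 to 7392) and 179 (31.9 to 7117).

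HTR3A and HTR3B, neighbours on chromosome 11, encode the serotonin-gated channel. HTR3A was at 4.46, 2.51, 0.972 and 1.23 CPM untreated, at 0.600, 0.556, 0.800 and 0.178 CPM in S1D4 (log2 -2.08, SE 0.56, adjusted p = 0.00668) and at 0.302, 0.0998, 0.133 and 0.0428 CPM in S2D30 (log2 -3.92, adjusted p = 5e-05, and -4.56 without S2D30 replicate 1). In S2D4 it had 3 counts, all in replicate 4. HTR3B averaged 0.750 CPM untreated and 0.269 CPM in S2D30 (log2 -1.46, adjusted p = 0.0145). HTR7, another receptor that raises cyclic AMP, ran the other way, from 3.35, 2.55, 1.46 and 0.720 CPM untreated to 8.69, 9.08, 6.62 and 6.86 CPM in S2D4 (log2 1.94, SE 0.31, adjusted p = 4.37e-05) and 7.32, 5.84, 6.51 and 8.47 CPM in S2D30 (log2 1.81, SE 0.31, adjusted p = 6.39e-05). Every S2D4 and S2D30 library lay above every untreated library.

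Receptors for dopamine fell at 30 days. DRD2, an inhibitory receptor, was at 1.72, 1.26, 2.72 and 2.85 CPM untreated, 1.12, 0.974, 0.715 and 1.24 CPM in S1D4 and 0.732, 0.748, 0.576 and 0.684 CPM in S2D30. Its log2 change was -1.07 (SE 0.31, adjusted p = 0.0104) in S1D4 and -1.62 (SE 0.32, adjusted p = 0.000241) in S2D30, while S2D4, at 3.65, 2.56, 2.80 and 1.60 CPM, overlapped untreated. DRD4, another inhibitory receptor, was at 23.3 and 35.1 CPM in untreated replicates 1 and 2 and at 12.7 and 8.62 CPM in replicates 3 and 4, and S1D4 showed the same division, at 25.5 and 31.8 against 10.1 and 9.59 CPM. S2D30 was at 9.31, 7.34, 9.52 and 9.36 CPM, overlapping the untreated range, and the call (log2 -1.15, adjusted p = 0.0174) was lost without untreated replicate 2 (log2 -0.71, adjusted p = 0.105).

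Among adrenergic receptors ADRA2C stood out by level and by change. ADRA2C, an alpha-2 receptor that inhibits adenylyl cyclase and serves as a presynaptic autoreceptor, was at 5.01, 3.72, 4.52 and 4.98 CPM untreated and at 4.68, 4.13, 7.62 and 6.53 CPM in S1D4. It was at 13.9, 16.5, 14.8 and 10.7 CPM in S2D4 and at 80.4, 72.8, 75.3 and 72.3 CPM in S2D30. S2D4 and S2D30 did not overlap any earlier group. The log2 change against untreated was 1.60 (SE 0.17, adjusted p = 4.83e-07) in S2D4 and 4.05 (SE 0.18, adjusted p = 7.69e-12) in S2D30, and the rise between those groups was 2.45 (SE 0.17, adjusted p = 6.03e-09). In every GIMEN library, untreated and D30, ADRA2C had 0 counts. ADRA1D, an alpha-1 receptor, was higher in S2D4 (0.786, 0.762, 1.35 and 0.288 CPM, against at most 0.264 CPM in untreated libraries; log2 2.70, adjusted p = 0.00165) and at most 0.215 CPM in S2D30. It was already called higher in S1D4, at a mean of 0.206 CPM per kb against 0.0391 untreated, though the libraries of these groups overlapped. The window before the ADRA2C start, chr4:3766135-3766384 on the plus strand of GRCh38.p14, is shown in the same form because ADRA2C led the S2D30 group per kilobase.
ADRA2C: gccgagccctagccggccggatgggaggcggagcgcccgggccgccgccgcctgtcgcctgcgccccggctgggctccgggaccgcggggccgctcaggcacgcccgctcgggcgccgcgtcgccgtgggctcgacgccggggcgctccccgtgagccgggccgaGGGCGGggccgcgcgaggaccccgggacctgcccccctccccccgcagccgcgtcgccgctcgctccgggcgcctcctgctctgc
It holds 1 GC box and is 84.8% G and C.

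ATP-gated P2X channels included the other large rise. P2RX4 and P2RX7 are neighbours on chromosome 12 in the RefSeq gene order and both rose in S2D30, so their windows are shown, at chr12:121132626-121132875 for P2RX7 and chr12:121209879-121210128 for P2RX4, both on the plus strand.
P2RX7: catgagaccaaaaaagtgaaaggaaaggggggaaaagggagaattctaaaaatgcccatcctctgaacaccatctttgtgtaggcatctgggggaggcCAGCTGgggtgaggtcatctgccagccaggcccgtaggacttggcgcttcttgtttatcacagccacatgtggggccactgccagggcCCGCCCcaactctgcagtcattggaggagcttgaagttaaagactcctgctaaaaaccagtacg
P2RX4: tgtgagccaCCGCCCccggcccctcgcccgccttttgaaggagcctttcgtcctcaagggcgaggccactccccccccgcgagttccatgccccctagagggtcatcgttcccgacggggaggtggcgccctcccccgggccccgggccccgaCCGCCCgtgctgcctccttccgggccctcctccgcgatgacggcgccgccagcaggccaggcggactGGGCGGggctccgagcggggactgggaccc
The P2RX7 window holds 1 GC box and 1 E-box and is 53.2% G and C. The P2RX4 window holds 3 GC boxes and is 76.0% G and C.

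P2RX4, a channel of the cell surface and of lysosomes, was at 13.5, 14.2, 10.1 and 9.31 CPM untreated and at 25.4, 25.2, 24.2 and 36.0 CPM in S2D4. It reached 98.8, 109, 110 and 97.1 CPM in S2D30. The S2D30 libraries were all above the others, by 3.15 on the log2 scale against untreated (SE 0.15, adjusted p = 1.99e-11) and by 1.92 against S2D4 (SE 0.14, adjusted p = 1.95e-08). P2RX7, known for opening a large pore at high ATP, was at 1.69, 1.69, 1.46 and 1.98 CPM untreated, at 1.29, 1.36, 1.21 and 0.897 CPM in S2D4 and at 4.52, 4.39, 5.27 and 6.63 CPM in S2D30 (log2 1.62, SE 0.22, adjusted p = 4.61e-06). In S2D4 it lay under the untreated libraries with no call (adjusted p = 0.0505), whereas P2RX4 rose there.

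P2RX6, a subunit that forms channels poorly by itself, rose in S1D4 and fell after it. It was at 13.5, 19.8, 16 and 16.1 CPM untreated, at 27.4, 29.5, 39.5 and 40.3 CPM in S1D4 (log2 1.06, SE 0.18, adjusted p = 0.000161), at 7.86, 7.40, 5.83 and 10.1 CPM in S2D4 (log2 -1.07, SE 0.18, adjusted p = 6.98e-05) and at 9.57, 11.5, 8.90 and 9.58 CPM in S2D30 (log2 -0.71, adjusted p = 0.00187). None of these treated groups overlapped the untreated libraries. P2RX3, the channel of sensory neurons, was at 0.765, 1.08, 1.07 and 1.44 CPM untreated and had 3 counts in S2D4, lower by a counting ratio of 33.3 (95% exact interval 11.1 to 164). In S2D30 it was at 0.302, 0.249, 0.221 and 0.385 CPM (log2 -1.88, SE 0.40, adjusted p = 0.000481). P2RX1, a channel of smooth muscle and platelets, was at 1.27, 1.69, 0.486 and 0.750 CPM untreated and 1.55, 1.30, 1.33 and 1.28 CPM in S2D30, with no call (adjusted p = 0.328). It was called higher in S1D4, at a mean of 0.605 CPM per kb against 0.264 untreated, though the libraries of these groups overlapped. Its call in S2D4 (log2 0.81) was lost without S2D4 replicate 4 (log2 0.53, adjusted p = 0.189) and in other alternatives.

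Of the P2Y receptors 3 were tested. P2RY6, a receptor for UDP, was at 3.32, 2.55, 2.58 and 1.53 CPM untreated and rose to 5.56, 5.52, 4.67 and 4.97 CPM in S1D4 (log2 1.06, SE 0.27, adjusted p = 0.00452). It was at 0.277, 0.435, 0.186 and 0.128 CPM in S2D4 and at 0.215, 0.200, 0.133 and 0.0855 CPM in S2D30 (log2 -3.93, SE 0.36, adjusted p = 4.61e-08). S1D4 was above and both later groups were below every untreated library. P2RY8, named with the P2Y receptors by sequence, averaged 4.25 CPM untreated and 12.4 CPM in S2D30 (log2 1.55, adjusted p = 3.25e-05). P2RY11 averaged 45.1 CPM untreated and 26.4 CPM in S2D30 (log2 -0.76, adjusted p = 0.000814), with the overlap with PPAN given above.

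**Figure D4:**
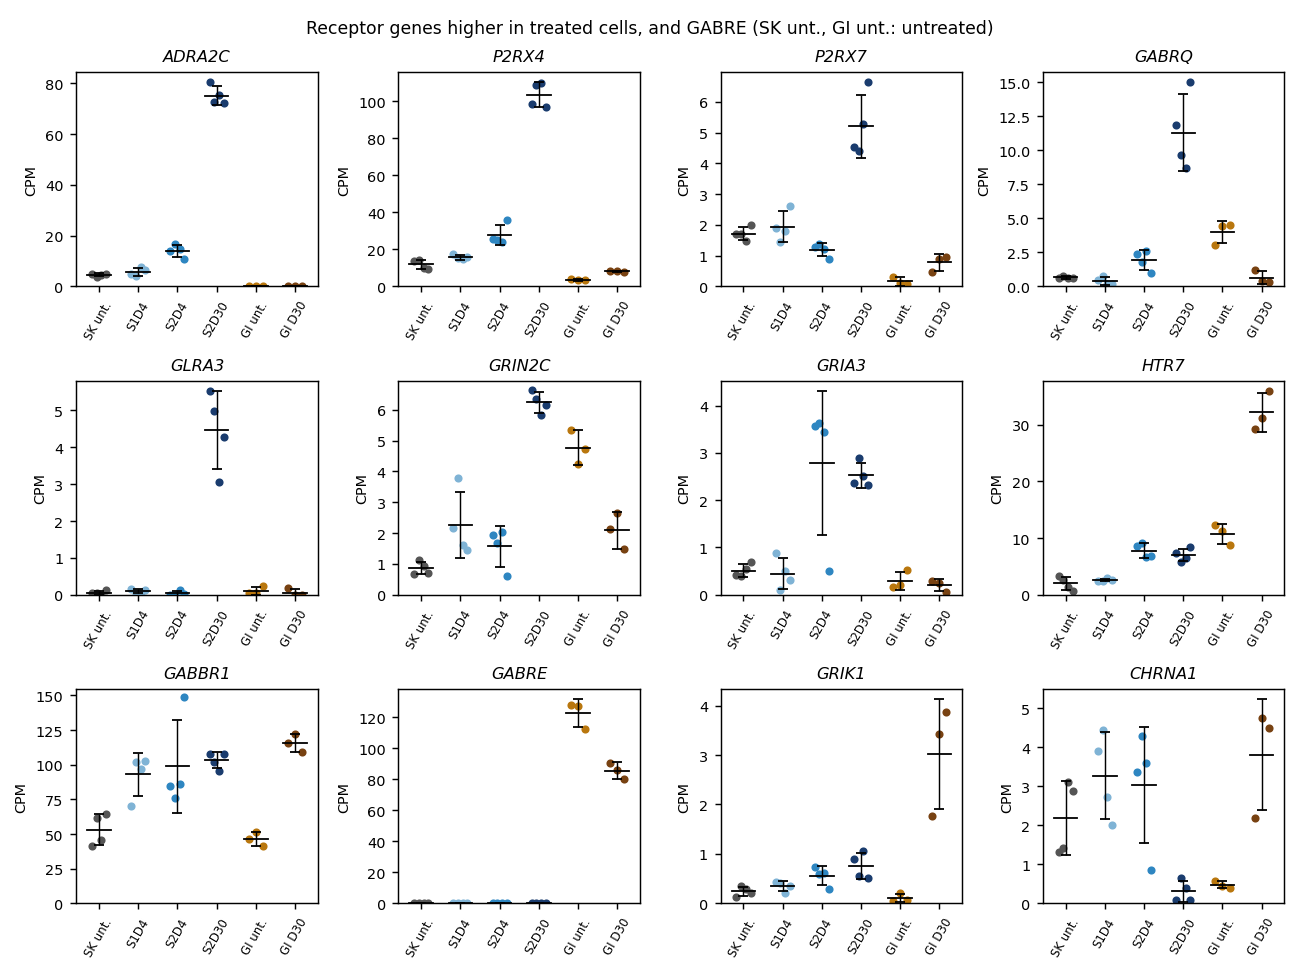
CPM in each library (points) with the mean and SD of the group (bars) for 12 receptor genes, 11 of which were called higher in at least 1 treated group, and GABRE; each panel has its own vertical axis from 0. ADRA2C and P2RX4 are highest in S2D30 (72.3 to 80.4 and 97.1 to 110 CPM), GLRA3 is near 0 outside S2D30, and GABRE is at 79.9 to 128 CPM in GIMEN and at most 0.517 CPM in SK-N-AS.

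Genes for glutamate-gated channels changed in both directions. Of AMPA receptors, which carry fast excitation, GRIA2, the subunit that keeps calcium out of the channel, fell and GRIA3 and GRIA4 rose. GRIA2 was at 5.44, 7.28, 2.29 and 4.89 CPM untreated, at 2.20, 2.92, 1.09 and 1.60 CPM in S1D4 and at 2.45, 2.07, 2.38 and 2.37 CPM in S2D4. It was at 0.215, 0.200, 0.266 and 0.214 CPM in S2D30, clear of each other group (log2 -4.43, SE 0.40, adjusted p = 3.78e-08). GRIA3 was at 0.422, 0.390, 0.535 and 0.690 CPM untreated and at 2.37, 2.89, 2.52 and 2.31 CPM in S2D30 (log2 2.31, SE 0.53, adjusted p = 0.000991). In S2D4 GRIA3 was at 3.56, 3.64 and 3.45 CPM in replicates 1 to 3 and at 0.513 CPM in replicate 4. GRIA4 averaged 0.179 CPM untreated and 0.769 CPM in S2D30 (log2 2.04, adjusted p = 0.0176).

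GRIK2 was the kainate subunit with the highest level per kilobase in untreated SK-N-AS (2.82 CPM per kb, against 0.600 for GRIK5). It was at 18.8, 17.8, 21.2 and 27.7 CPM untreated, at 18.5, 18.6, 15.9 and 43.0 CPM in S2D4 and at 3.75, 5.39, 3.99 and 2.99 CPM in S2D30 (log2 -2.40, SE 0.30, adjusted p = 1.67e-06). Its partner GRIK5 averaged 3.01 CPM untreated and 0.913 CPM in S2D30 (log2 -1.71, adjusted p = 0.00169), while GRIK1 averaged 0.245 and 0.757 CPM (log2 1.68, adjusted p = 0.00156). NMDA receptors act as coincidence detectors, and all 5 tested subunit genes changed in S2D30. GRIN2C went from 0.686, 1.13, 0.924 and 0.720 CPM untreated to 6.64, 6.34, 5.84 and 6.16 CPM in S2D30 (log2 2.88, SE 0.36, adjusted p = 2.16e-06), and GRIN2A from 8 counts in all to a mean of 0.854 CPM, a counting ratio of 12.1 (95% exact interval 5.82 to 29). GRIN2D went the other way, from 7.44, 9.48, 7.24 and 11 CPM to 4.31, 3.99, 3.72 and 4.58 CPM (log2 -1.08, SE 0.21, adjusted p = 0.000197). GRIN3A and GRIN3B, subunits that bind glycine, fell by 2.55 (adjusted p = 2.42e-06) and 1.67 (adjusted p = 0.000555) on the log2 scale. GRIN3B was lowest in S2D4, at 0.0925, 0.163, 0.0466 and 0.256 CPM against 1.16, 1.85, 2.61 and 2.18 CPM in S1D4 (log2 -3.69, SE 0.41, adjusted p = 1.35e-06). These subunit changes stood beside GRIN1 below the detection limit.

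A single metabotropic glutamate receptor, GRM8, passed the filter in the SK-N-AS model. It was at 0.528, 0.563, 0.827 and 0.450 CPM untreated and at 0.160, 0.185, 0.210 and 0.266 CPM in S1D4 (log2 -1.48, SE 0.42, adjusted p = 0.00914), with no call in S2D30 (0.646, 0.699, 1.33 and 0.556 CPM; adjusted p = 0.243).

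GABA-A receptors are chloride channels that in mature neurons inhibit. Of 8 tested subunits 4 rose in S2D30 (GABRA2, GABRQ, GABRR1 and GABRR2) and 3 fell, GABRA3 and GABRP among them. GABRQ, the theta subunit, was at 0.607, 0.779, 0.632 and 0.600 CPM untreated, at 2.40, 1.80, 2.56 and 0.994 CPM in S2D4 and at 11.9, 9.63, 8.68 and 15 CPM in S2D30. The groups were ordered without overlap, with log2 changes of 1.55 (SE 0.38, adjusted p = 0.00201) and 4.12 (SE 0.38, adjusted p = 5.57e-08). GABRA3, its neighbour on the X chromosome, moved the other way, averaging 4.79 CPM untreated and 2.22 CPM in S2D30 (log2 -1.09, adjusted p = 0.000226). GABRR1, a rho subunit known from the retina, was high in S1D4 and S2D4: at most 0.237 CPM untreated, 5.68, 4.68, 3.28 and 2.71 CPM in S1D4, 5.04, 4.84, 5.13 and 3.69 CPM in S2D4, and 0.259, 0.699, 0.399 and 0.299 CPM in S2D30. No GIMEN library held a count of it. Its log2 change was 5.08 in S1D4 (SE 0.46, adjusted p = 5.5e-07) and 1.78 in S2D30 (adjusted p = 0.00669), or 5.89 and 2.59 without untreated replicate 1, and the fall from S2D4 to S2D30 was -3.48 (SE 0.40, adjusted p = 2.38e-06). GABRP, the pi subunit, was at 4.06, 3.25, 5.06 and 7.26 CPM untreated and at 0.680, 1.30, 0.673 and 1.20 CPM in S1D4 (log2 -2.35, SE 0.35, adjusted p = 5.67e-05), near which it stayed, with means of 1.29 CPM in S2D4 and 1.14 CPM in S2D30.

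GABA-B receptors need both GABBR1 and GABBR2 to reach the membrane and couple to G proteins. GABBR1 was at 41.6, 61.2, 45.9 and 64.3 CPM untreated, at 70.4, 102, 97.1 and 103 CPM in S1D4, at 84.6, 76.0, 86.1 and 149 CPM in S2D4 and at 108, 102, 95.3 and 108 CPM in S2D30. Every treated library lay above every untreated one, with log2 changes of 0.80 (adjusted p = 0.00435), 0.88 (0.00104) and 0.97 (0.000391), each with SE 0.20. GABBR2 was at 0.237, 0.00, 0.0486 and 0.150 CPM untreated, 3.36, 2.50, 2.23 and 1.51 CPM in S1D4 and 0.388, 0.499, 0.177 and 0.128 CPM in S2D30. It rose by 4.24 on the log2 scale in S1D4 (SE 0.54, adjusted p = 1.57e-05; 4.90 without untreated replicate 1), and in S2D30 it overlapped untreated with no call (adjusted p = 0.0872).

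Glycine receptor subunits were few. GLRA3, an alpha subunit, was at 0.0528, 0.0433, 0.00 and 0.120 CPM untreated, had 4 counts in all S2D4 libraries and was at 5.52, 4.99, 3.06 and 4.28 CPM in S2D30. It rose by 6.12 on the log2 scale against untreated (SE 0.53, adjusted p = 2.39e-08; 6.79 without untreated replicate 4). GLRB, the beta subunit that anchors the receptor, was at 2.11, 2.08, 2.19 and 2.49 CPM untreated and 2.63, 2.74, 2.39 and 2.65 CPM in S2D30, with no call (adjusted p = 0.565).

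Time courses over the 3 SK-N-AS comparisons with untreated, which share the untreated libraries, are given as counts of genes. The share of all genes with each course is not given, so these counts do not set the members apart from other genes. Lower in each of the 3 were 8 genes (GRIA2, GRIN3A, GABRP, CHRM1, CHRM2, HTR3A, HTR6 and P2RX3), and higher in each were 4 (GABRR1, GABBR1, CHRNB1 and P2RX4). A further 8 were lower and 8 higher from S2D4 on, among them CHRNA3, CHRNA5, HTR2B and GRIN2D, and ADRA2C, GABRQ, GRIA3 and HTR7. Called in S2D30 and in neither earlier group were 9 lower genes, such as GRIK2 and GRIK5, and 7 higher, such as GLRA3 and P2RX7. These counts depended on S2D4 replicate 4. With the S2D4 comparison fitted without it, 5 genes were lower in S2D30 and had no earlier call, and 12 were lower from S2D4 on, CHRNB4, CHRNA10, P2RX2 and P2RY11 having moved from the first count to the second. The higher genes then numbered 6 with a call at S2D30 alone, 9 from S2D4 on and 5 in each of the 3 comparisons. Both P2RX6 and P2RY6 were higher in S1D4 and lower later. Of these calls, that of P2RX3 in S1D4 (adjusted p = 0.0456) was lost in several alternatives, with p up to 0.132 without S1D4 replicate 2, and that of P2RX4 in S1D4 (0.0284) became 0.0875 without untreated replicate 3. GRIK1, higher from S2D4 on, was called in S2D4 at an adjusted p of 0.0201 (log2 1.2). That p became 0.0667 without untreated replicate 1 and 0.0659 without S2D4 replicate 1. With a term for replicates 3 and 4 of the untreated and S1D4 groups it was 0.0619.

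In GIMEN, 29 members were tested, and 13 (44.8%) were higher and 9 (31.0%) lower at D30, beside 35.5% and 36.0% of all 13517 genes. The members' median log2 change was 0.35, against 0.02 for all genes. All 3 tested P2X genes and both tested P2Y genes rose, and 3 of 7 GABA-A genes fell. The P2Y call of P2RY11 was small (log2 0.29, adjusted p = 0.00997) and was lost under the DESeq2 test (adjusted p = 0.0512). GRIK1 rose from 0.0520, 0.202 and 0.0575 CPM to 1.77, 3.43 and 3.86 CPM (log2 4.73, SE 0.54, adjusted p = 1.02e-05; 5.59 without untreated replicate 2). CHRNA1 rose from 0.573, 0.455 and 0.403 CPM to 2.19, 4.76 and 4.50 CPM (log2 2.97, SE 0.38, adjusted p = 2.91e-05). Neither gene's groups overlapped.

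HTR7 was at 12.3, 11.2 and 8.74 CPM in untreated GIMEN and at 29.3, 31.2 and 36.0 CPM at D30 (log2 1.57, SE 0.13, adjusted p = 7.42e-07). GABBR1 was at 46.5, 51.7 and 41.1 CPM and at 116, 122 and 109 CPM (log2 1.31, SE 0.08, adjusted p = 6.5e-08). P2RX6 was at 8.59, 8.85 and 7.42 CPM and at 21.2, 28.7 and 24.8 CPM (log2 1.58, SE 0.13, adjusted p = 7.63e-07). For these 3 genes each D30 library was above each untreated one. P2RX1 rose by 2.09 (SE 0.27, adjusted p = 3.2e-05) and P2RX4 by 1.22 (SE 0.16, adjusted p = 3.14e-05) on the log2 scale, the latter from 3.80, 3.29 and 3.16 CPM to 8.34, 8.18 and 7.52 CPM. GABRB2, a beta subunit of GABA-A receptors, rose from 0.104, 0.202 and 0.230 CPM to 1.42, 1.01 and 0.836 CPM (log2 2.57, SE 0.47, adjusted p = 0.000427). CHRM3 rose by 1.92 from a mean of 0.214 to 0.831 CPM (log2, SE 0.65, adjusted p = 0.0198), a call lost without D30 replicate 2 (adjusted p = 0.0871), and by 2.51 without untreated replicate 2.

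Falls in GIMEN were led by GABRQ, at 3.07, 4.45 and 4.49 CPM untreated and 1.18, 0.381 and 0.321 CPM at D30 (log2 -2.64, SE 0.40, adjusted p = 0.000105; -3.47 without D30 replicate 1). GRIK2 went from 14.4, 12.7 and 12.9 CPM to 2.13, 4.06 and 3.28 CPM (log2 -2.09, SE 0.20, adjusted p = 2.17e-06). CHRM2 went from 1.56, 1.37 and 1.09 CPM to 0.473, 0.127 and 0.643 CPM (log2 -1.68, adjusted p = 0.0061). None of the 3 overlapped. ADRA1B fell by 1.27 (adjusted p = 0.000281), GRIN2C by 1.19 (adjusted p = 0.000967), CHRNA5 by 1.12 (adjusted p = 0.00493) and GLRB by 0.87 (adjusted p = 0.00482) on the log2 scale. GABRE, the leading GABA-A subunit of the line, fell from 128, 127 and 112 CPM to 90.6, 85.7 and 79.9 CPM (log2 -0.52, SE 0.07, adjusted p = 3.88e-05).

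Whether the 30-day change differed between the lines was tested directly, as the change in SK-N-AS minus that in GIMEN. Of 67 tested members 12 (17.9%) differed upward and 22 (32.8%) downward, beside 24.5% and 25.2% of all 16246 genes, and the members' median was -0.89 against -0.02. Dose, medium and the first stage without bufalin differed along with the line. Of 23 genes tested within both lines 15 were called in both: 6 higher in both, 3 lower in both and 6 in opposite directions. P2RY11 and CHRM3 were among these 6. The GIMEN call of P2RY11 and the calls of CHRM3 in both lines were each lost in at least 1 alternative, as given above. The shares of all genes called in both lines are not given, so these counts do not set the members apart. GABRQ rose in SK-N-AS and fell in GIMEN, a difference of 6.76 (log2, SE 0.47, adjusted p = 5.03e-09; 7.62 without GIMEN D30 replicate 1), and so did GRIN2C, a difference of 4.07 (SE 0.33, adjusted p = 3.06e-08). CHRNA1 fell in SK-N-AS and rose in GIMEN (-5.83, SE 0.76, adjusted p = 7.68e-06; -6.47 without S2D30 replicate 2), as did P2RX6 (-2.31, SE 0.21, adjusted p = 1.66e-07). P2RX4 rose in both lines and more in SK-N-AS (1.91, SE 0.21, adjusted p = 1.11e-06). GRIK2, HTR7, GABBR1 and CHRNB1 changed in the same direction in both lines, and their differences of -0.33 (SE 0.31), 0.21 (SE 0.41), -0.36 (SE 0.19) and -0.40 (SE 0.20) missed the threshold, which does not show equal changes.

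**Figure D5:**
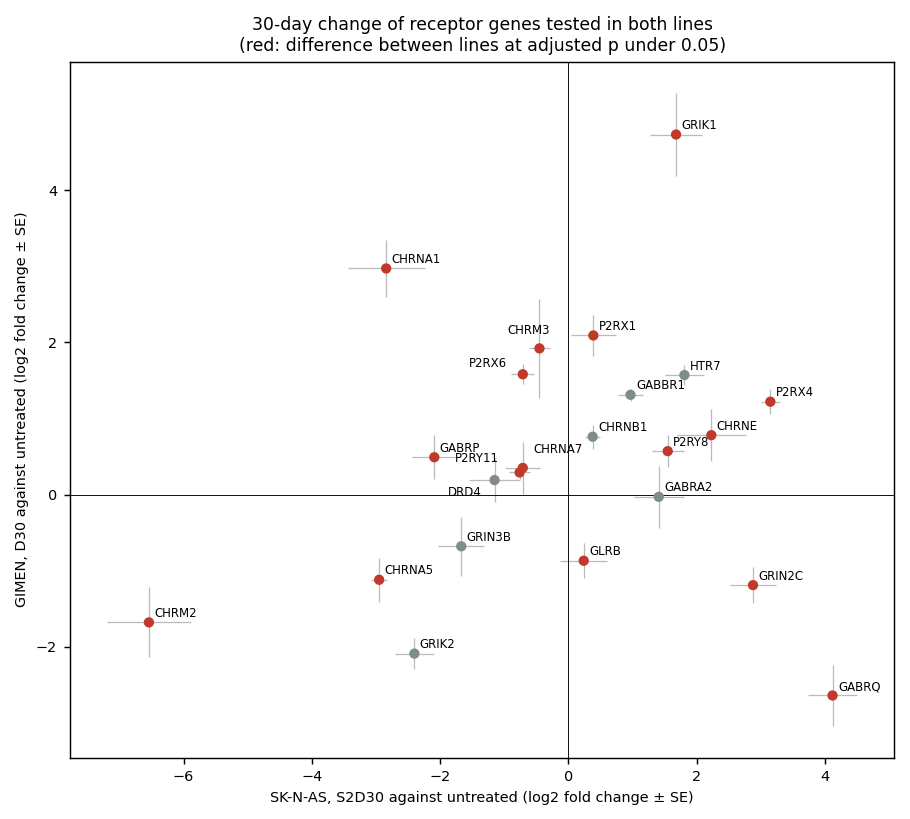
Log2 fold change at 30 days in SK-N-AS (horizontal axis, S2D30 against untreated) and in GIMEN (vertical axis, D30 against untreated) of the 23 receptor genes tested within both lines, with bars of 1 SE. Red points differed between lines at an adjusted p under 0.05. GABRQ and GRIN2C lie at the lower right, CHRNA1, CHRM3 and P2RX6 at the upper left, and GRIK2 lies near equal falls of -2.40 and -2.09.

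Several of the largest line differences rest on genes with few counts in GIMEN. GLRA3 differed by 6.83 (SE 1.35, adjusted p = 0.000469), with 6 counts in untreated GIMEN and 3 at D30. Its value was 10.46 without D30 replicate 1 and 5.86 without untreated GIMEN replicate 3. P2RY6 differed by -5.40 (SE 1.00, adjusted p = 0.000277), with 7 and 17 GIMEN counts, and by -4.45 without D30 replicate 3 and -6.05 without untreated GIMEN replicate 3. GRIA2 differed by -7.51 (adjusted p = 0.0144) on 0 and 2 GIMEN counts, and without D30 replicate 1, which held both, the value was -4.41 with an adjusted p of 1.0. CHRND differed by -5.47 (adjusted p = 0.0311) on 3 and 2 GIMEN counts, by -2.36 (adjusted p = 0.909) without D30 replicate 2, and by -6.29 without untreated GIMEN replicate 2. For such genes the size of a fitted difference depends on the model's handling of zeros.

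Genes that serve receptors without being receptors were described by 3 lists. Of 48 scaffold, auxiliary and trafficking genes 36 were tested in SK-N-AS, and in S2D30 12 (33.3%) rose and 16 (44.4%) fell, beside 33.8% and 36.5% of all genes tested (median log2 -0.27 against -0.03 for all genes). DLG2, a postsynaptic scaffold, fell by 5.58 (adjusted p = 5.61e-11) and CACNG4, an auxiliary subunit of AMPA receptors, by 4.37 (adjusted p = 1.11e-10), while SHANK1, another scaffold, rose by 6.98 (adjusted p = 1.6e-10) and GABARAPL1, named for GABA receptor trafficking and also an autophagy gene, by 5.32 (adjusted p = 1.14e-13). RIC3, a chaperone of nicotinic receptors, rose by 1.5 (adjusted p = 2.84e-07) while most nicotinic subunits fell. In GIMEN 13 of 29 tested genes of the list (44.8%) rose and 7 (24.1%) fell, beside 35.5% and 36.0% of all genes (median 0.07 against 0.02), with GABARAPL1 up by 3.20 (adjusted p = 2.01e-11).

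Of 42 genes for receptor coupling and desensitisation 41 were tested in SK-N-AS, and 8 (19.5%) rose and 22 (53.7%) fell in S2D30, beside 33.8% and 36.5% of all genes (median -0.53). Falls included PLCB4, a phospholipase C (-3.63, adjusted p = 4.71e-10), GNAO1, a G protein subunit abundant in neurons (-2.56, adjusted p = 1.85e-11), and GRK3, a receptor kinase (-2.23, adjusted p = 6.18e-11). RGS20, which shortens G protein signals, rose by 5.45 (adjusted p = 9.21e-07). In GIMEN 10 of 37 (27.0%) rose and 19 (51.4%) fell, beside 35.5% and 36.0% of all genes (median -0.24). Of 38 genes for transmitter synthesis, uptake and breakdown 22 were tested in SK-N-AS, and 10 (45.5%) rose and 5 (22.7%) fell in S2D30, beside 33.8% and 36.5% of all genes (median 0.23). SLC18A3, the vesicular transporter of acetylcholine, fell by 7.02 (adjusted p = 2.99e-11), whereas ACHE, which breaks acetylcholine down, rose by 4.06 (adjusted p = 1.29e-07). SLC1A3, a glutamate transporter, rose by 5.80 (adjusted p = 1.6e-07), NT5E, which forms adenosine, by 4.60 (adjusted p = 4.27e-10) and GAD1, which makes GABA, by 3.86 (adjusted p = 4.72e-05). In GIMEN 11 of 18 (61.1%) rose and 3 (16.7%) fell, beside 35.5% and 36.0% of all genes (median 0.45), with SLC1A3 up by 2.68 (adjusted p = 4.96e-06).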

How the data were processed

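Total RNA of 22 libraries was sequenced as paired reads, and the authors deposited 1 table of raw counts per gene, with a gene symbol for each of 35237 rows. The aligner, counter, genome build, annotation and strand setting are not given in the sources used here. All 22 count columns were matched to samples by name. Counts were tested in edgeR 4.0.16 (R 4.3.3) by the quasi-likelihood test, with TMM scaling, filterByExpr (minimum count 10, minimum total 15) and Benjamini-Hochberg adjustment over all genes tested. A call is an adjusted p under 0.05. One model held the 16 SK-N-AS libraries, another the 6 GIMEN libraries, a further one the 14 libraries of untreated and 30-day cells for the line difference, and the last all 22 for the untreated lines. CPM come from 1 TMM scaling of all libraries. In comparisons of 2 groups of a line, where each library of a group held at most 3 counts, no fitted fold is given (line differences are given as fitted there too): a ratio of summed counts has a 95% exact interval, for counting error only, and against 0 counts a lower bound is given. Totals of 16456484 to 37506800 counts set the depth.

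Named genes are, in each comparison of 2 groups, up to 6 called rises and 6 falls with a mean of at least 1 CPM and no overlap, the member with the most CPM in each class, up to 6 largest line differences, and partners that complete a class. Members, gene lists (scaffold, coupling and synthesis genes) and markers (adrenergic, mesenchymal, Schwann and glial, leukocyte, endothelial) were chosen with earlier results of these data known. Alternatives were DESeq2 1.42.0 (its size factors, and its test), upper-quartile factors, no filter, the compared groups alone, a replicate block and leaving out each library. Scripts were tested on simulated counts. Lengths and overlaps come from GENCODE 29, and promoter windows from RefSeq GRCh38.p14. These were joined by symbol only, since the authors' build is unknown. Figures used matplotlib 3.10.9. A receptor gene and a marker gene are not reported here by name.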

Additional observations from a re-analysis of the deposited data

Results flagged for a closer look

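In 107 groups of 4 libraries of named genes, the highest or lowest library was checked for a gap to its neighbour larger than chance gives in 1 of 20 groups, which is 5.35 of 107, and 10 such libraries were found. Of them 7 were S2D4 replicate 4. In that library CHRNA3 was at 411 CPM against 134 to 155 CPM in the other replicates, GRIK2 at 43.0 against 15.9 to 18.6, GABBR1 at 149 against 76.0 to 86.1 and P2RX4 at 36.0 against 24.2 to 25.4. P2RX1 was at 2.76 CPM there against 1.45 to 1.62, and GRIA3 was low, at 0.513 CPM against 3.45 to 3.64. GRIN2D was likewise high in it, at 4.52 CPM against 2.61 to 2.94. The others were DRD4 in S2D30 replicate 2 (7.34 CPM against 9.31 to 9.52), HTR7 in S1D4 replicate 3 (2.99 against 2.46 to 2.53) and P2RX1 in S2D30 replicate 1 (1.55 against 1.28 to 1.33).

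The 30-day change differed between the lines, by the test of the difference itself, with the largest values for 6 genes among those with a mean of at least 1 CPM in 1 of the 4 groups (log2, SK-N-AS minus GIMEN). These were GABRQ at 6.76, GLRA3 at 6.83, CHRNA1 at -5.83, P2RY6 at -5.40, GRIA2 at -7.51 and CHRND at -5.47. The calls of GRIA2 and CHRND were lost without 1 GIMEN D30 library each, with adjusted p of 1.0 and 0.909. CHRNA9, below that level in each of the 4 groups, had a difference of 7.66 (adjusted p = 0.00718), a call lost without untreated GIMEN replicate 2 (6.87, adjusted p = 0.0702).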

How the results depend on the processing

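Every count of called receptor genes stayed within 1.5 times its value and kept its direction in each alternative run. Without 1 library at a time, members called higher and lower ranged over 12 to 16 and 8 to 11 for S1D4, 14 to 20 and 19 to 26 for S2D4, and 19 to 24 and 28 to 31 for S2D30, each against untreated. They ranged over 10 to 12 and 21 to 30 for S2D4 against S1D4, 13 to 18 and 16 to 18 for S2D30 against S2D4, 12 to 15 and 8 to 10 for GIMEN D30, 10 to 13 and 18 to 23 for the line difference, and 38 to 39 and 10 to 12 for the untreated lines. Replicate numbers were not taken as pairing the libraries, since not every same-numbered pair had deviations from its group means correlated above 0.1: 4 of 27 pairs did (range -0.106 to 0.29). Of the 4 pairs of untreated and S1D4 libraries 3 did, at 0.273, 0.267 and 0.29, and the other, replicate 3, was at 0.041, with untreated replicate 3 correlating most with S1D4 replicate 4 (0.069). With a replicate block the counts were 14 and 9 for S1D4, 18 and 21 for S2D4, 20 and 31 for S2D30, and 13 and 8 for GIMEN D30. The DESeq2 test gave 24 and 25 for S2D4 and 24 and 34 for S2D30. It was run without filterByExpr, so these counts are over another set of tested members than the main counts. A term for replicates 3 and 4 of the untreated and S1D4 groups alone was chosen after seeing the data. It gave 16 and 10 for S1D4, 15 and 22 for S2D4 and 18 and 32 for S2D30. The term did not cover S2D4 and S2D30, so these were set against the fitted level of untreated replicates 1 and 2. Of 299 results for named genes, 252 kept direction and call in every alternative. Counts per library limit genes under about 1 CPM, where single libraries moved fitted changes most.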
